A study of Mus musculus with 2 samples.

Results

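The type I interferon effector module is a set of 40 mouse genes that cells switch on when they sense type I interferon. The genes were listed by name as known interferon-induced effectors. All 40 were found among the 33696 genes of the deposited count matrix. They were followed across the cell classes of 1 dissociated tumour library, and the questions were which members were higher in 1 class than in the rest and how the summed module was spread over single cells.

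The study compared subcutaneous tumours of the mouse breast cancer line 4T1, genotype WT, between a group given PBS and a group given a treatment labelled PCN, named PATCH in the series' title. The strain, sex and age of the mice, the dose and time, and how many animals made up a library were not given in the labels. Counts of the treated library alone were used, and none of the values below measures an effect of the treatment, since PBS counts were not analysed here.

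Type I interferons are secreted alarm proteins of the antiviral response. They bind the receptor pair IFNAR1 and IFNAR2, whose kinases JAK1 and TYK2 pass the signal on to the transcription factor complex ISGF3. ISGF3 binds a DNA motif called the interferon-stimulated response element (ISRE) near the start of its target genes. The products block viral RNA and protein synthesis, sense nucleic acids or tag proteins, and in tumours the programme is known from myeloid cells, where nucleic acid of dying cells can trigger it.

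The treated matrix held 12309 barcodes and 96873409 UMIs (unique molecular identifiers, 1 per captured transcript). The authors kept 10835 cells with 60652188 UMIs, and all of them were in the matrix, beside 37 barcodes that the control list also names. Of these, 33 barcodes stood in both lists. With 1 library there was no replicate, so no test was run. Intervals are exact 95% intervals for counts and cover counting error only.

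Each kept cell was put in the first class whose marker share it met. Neutrophils (3518 cells, 32.5%) needed at least 2% of UMIs from S100a8, S100a9, Csf3r and G0s2. Fibroblasts (325 cells, 3%) needed 0.5% from Col1a2, Col3a1 and Dcn, tumour cells (322 cells, 2.97%) 0.1% from Krt8, Krt18, Krt7 and Epcam, T/NK cells (238 cells, 2.20%) 0.1% from Cd3e, Cd3g, Trbc2 and Ncr1, and macrophages (4672 cells, 43.1%) 0.3% from C1qa, C1qb, Csf1r, Apoe and Lyz2. No class was given to 1760 cells (16.2%). Median UMIs per cell were 1698 in neutrophils, 11662 in fibroblasts, 11176 in tumour cells, 2916 in T/NK cells and 7168 in macrophages.

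The labels of the classes were checked on markers that the rule did not use, 8 for each. All 8 were highest in their own class for neutrophils, fibroblasts and T/NK cells, and 7 of 8 for macrophages and tumour cells. Cd14 was higher in neutrophils than in macrophages, and the tumour marker Cldn3 was at 0 UMIs in tumour cells. The summed macrophage markers stood at 4235 CPM (UMIs per 1000000 UMIs of the class) in the neutrophil class against 5906 in macrophages, and Cd14 made up 3798 of the former. The macrophage genes C1qc and Ms4a7 reached 7.12% and 6.73% of their macrophage level in neutrophils, and the neutrophil gene Retnlg reached 0.352% of its neutrophil level in macrophages. Of the neutrophil cells, 311 also met another class rule.

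Many members carry the ISRE letters at their start, and the windows below are shown because these members recur in the results. RefSeq promoters (GRCm38.p6, 250 bases before to 50 after the start) were at hand for 31 of the 40 members. The motif searched was GAAA, any 2 bases and GAAA again, which reads TTTC, any 2 bases and TTTC on the other strand. It was present in 19 of the 31 (61.3%), against 3.99% of the 27025 genes in the table. Its 30 matches, some of which overlap each other, lay at a median of 69 bases before the start. The letters TTCNNNGAA of a gamma-activated site were in 6 of 31 members (19.4%) and in 9.55% of all genes. Each window of 40 bases is written in the direction of the gene, with the match in capitals. The windows of Ifit3 and Ifit3b were the same, as were those of Oas1a and Oas1g.
Isg15, chr4:156200872-156200911, minus strand: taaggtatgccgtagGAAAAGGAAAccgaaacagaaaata
Ifit1, chr19:34640789-34640828, plus strand: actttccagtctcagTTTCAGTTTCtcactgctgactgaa
Ifit3, chr19:34583392-34583431, plus strand: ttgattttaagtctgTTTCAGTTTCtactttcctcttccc
Rsad2, chr12:26456548-26456587, minus strand: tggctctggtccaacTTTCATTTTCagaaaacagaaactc
Oas3, chr5:120777710-120777749, minus strand: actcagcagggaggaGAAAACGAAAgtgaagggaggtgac
Oas1a, chr5:120907521-120907560, minus strand: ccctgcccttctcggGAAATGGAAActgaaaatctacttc
Ifi207, chr1:173741826-173741865, minus strand: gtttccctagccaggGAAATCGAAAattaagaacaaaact
Ifi211, chr1:173913059-173913098, minus strand: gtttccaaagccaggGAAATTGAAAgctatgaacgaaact
Ifi203, chr1:173942503-173942542, minus strand: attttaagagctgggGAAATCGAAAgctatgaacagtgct
Bst2, chr8:71537578-71537617, minus strand: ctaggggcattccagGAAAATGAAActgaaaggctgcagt

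The Ifi207, Ifi211 and Ifi203 windows belong to the 7 module genes of the Ifi200 family, which neighbour each other on chromosome 1. The 5 Ifit genes are likewise together on chromosome 19, and Rsad2 neighbours Cmpk2 on chromosome 12. Among the members without the motif in the window were Ifit2, Ifi44, Ifi209 and Isg20. This says only that the letters were not in these bases.

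Macrophages had the highest module level. The summed 40 members gave 2078 CPM in macrophages (95% interval 2063 to 2093), 1378 in neutrophils (1352 to 1405), 1178 in fibroblasts (1143 to 1213), 1051 in T/NK cells (983.3 to 1123) and 855.7 in tumour cells (824.5 to 887.7). These intervals cover counting error of the pooled UMIs only, not the spread between cells. As a mean over cells macrophages (2180 CPM) and neutrophils (1441) stayed highest, but the order below them changed. Tumour cells then stood at 1191 CPM, with 1 barcode of very high share described below, fibroblasts at 1184 and T/NK cells at 988.7. Macrophages, the class with the most cells and UMIs, held 72.3% of all module UMIs. Counted per cell, the module gave 16.5 UMIs in macrophages, 13.2 in fibroblasts, 8.84 in tumour cells, 3.71 in T/NK cells and 2.95 in neutrophils, so fibroblasts stood above neutrophils on this scale.

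**Figure D1:**
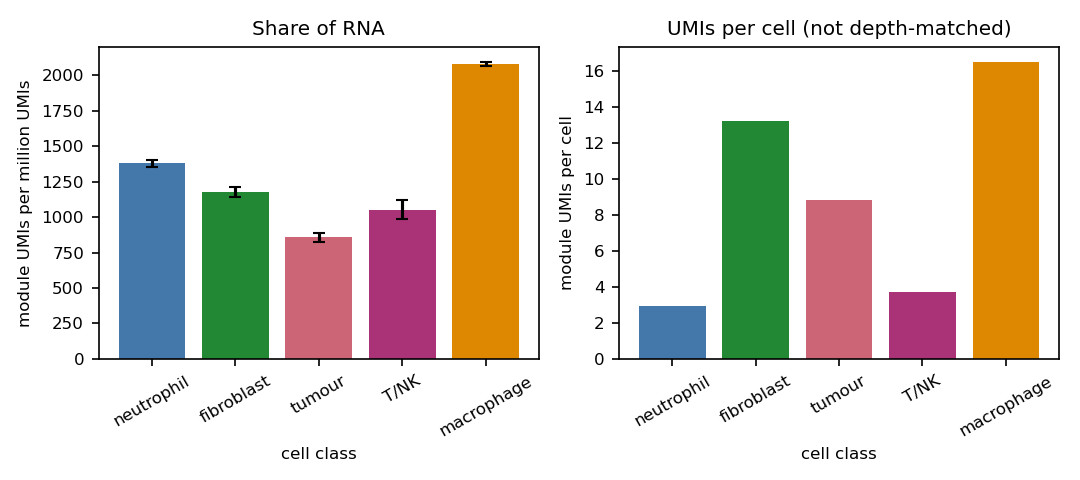
Summed level of the 40 module genes in each class of kept cells, in CPM with exact Poisson 95% intervals (left) and in UMIs per cell, not matched for depth (right). In CPM macrophages stand highest at 2078 and tumour cells lowest at 855.7, and per cell neutrophils are lowest at 2.95.

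Against all other kept cells, the macrophage module was 1.66 times as high (95% interval 1.64 to 1.68). Of the 36 members with at least 50 UMIs in all kept cells, 9 were at least 2 times higher in macrophages and 1 was at least 2 times lower. Over all genes tested the same shares were 6.29% and 22.5%. The median log2 ratio of the members was 0.45, and that of all genes −0.10. In neutrophils the module was 0.761 times the other cells, with 5 members higher and 13 lower (all genes 9.28% and 60.1%), and the median log2 ratio was −0.36 against −1.43 for all genes. Neutrophils therefore showed a smaller deficit in the module than in the typical gene.

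The other classes stood below the rest of the library. Fibroblasts were at 0.656 times the other cells, with 2 members higher and 19 lower (all genes 17.6% and 24.4%). Tumour cells were at 0.473 times, with 0 higher and 17 lower (all genes 24.9% and 24.8%). T/NK cells were at 0.595 times, with 2 higher and 17 lower (all genes 17.4% and 31.2%). The median member was at −1.04 in fibroblasts, −0.75 in tumour cells and −0.90 in T/NK cells on the log2 scale, where all genes were at −0.09, 0.21 and 0.00. These ratios compare a class with a pool that is mostly macrophages and neutrophils.

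Different members filled the sum in different classes. In macrophages Ifi27l2a, a small hydrophobic protein strongly induced by interferon, held 22.4% of module UMIs, Ifi207 14.5% and Bst2 6.93%. Neutrophils had Isg15 at 16.5%, Ifi27l2a at 14.3% and Trim30a at 10.4%. In fibroblasts the leading members were Ifi204 at 13.6%, Slfn5 at 13.2% and Ifi207 at 12.9%, and in tumour cells Bst2 at 18.9%, Ifi203 at 9.62% and Ifi204 at 9.48%. T/NK cells had Ifi27l2a at 34.7%, Ifi203 at 8.71% and Trim30a at 6.34%. The reagents capture the 3′ end of transcripts, so a UMI stands for a transcript whatever its length.

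A member was called led by a class when its CPM there was at least 2 times that of the second-highest class. Of 36 members with at least 50 UMIs in kept cells of the 5 classes, 10 were led by a class (27.8%), beside 31% of all genes tested. Neutrophils led 4 members, macrophages 4, fibroblasts 1, T/NK cells 1 and tumour cells 0. The shares of all genes were 5.11% for neutrophils, 4.14% for macrophages, 7.88% for fibroblasts, 5.93% for T/NK cells and 7.99% for tumour cells. The share led was near that of genes at large, so this count does not set the members apart. The call compares the 2 highest classes only, and a member not led can still differ widely between classes. Among those not led, the highest level was 36.3 times the lowest for Ifi207 and 1.73 times for Ifit3b. The Ifit3b value rests on 2 UMIs in T/NK cells and 5 in fibroblasts. The highest level lay in neutrophils for 11 of the 36 members, in macrophages for 11, in T/NK cells for 9, in fibroblasts for 3 and in tumour cells for 2. The same shares over all genes were not counted, so this does not set the members apart either. Of those highest in T/NK cells, the interval of the ratio to the second class reached below 1 for Ifit3b, Usp18, Herc6, Parp14, Ifi203 and Xaf1. It lay above 1 for Ifi35, Ifi47 and Ifi206.

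**Figure D2:**
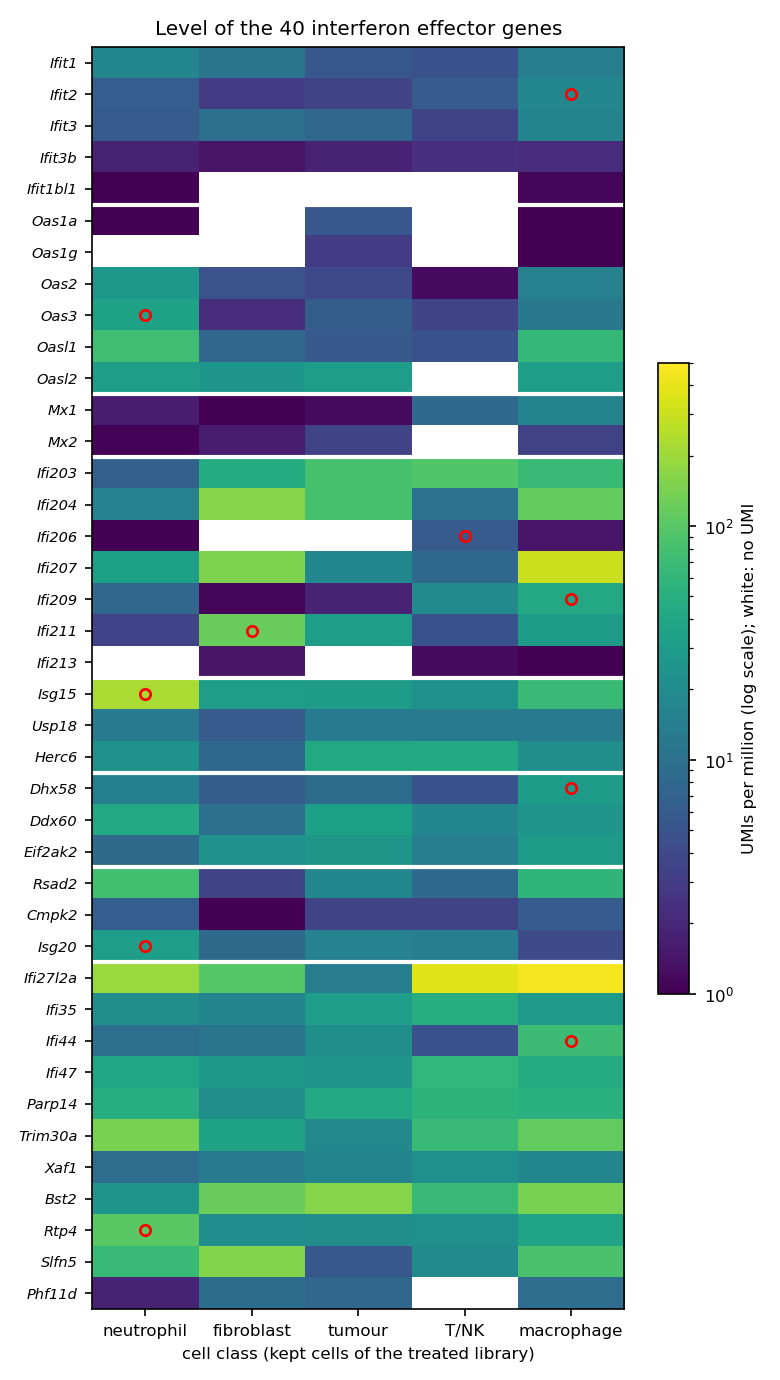
Level of each of the 40 members in the 5 classes on a colour scale of CPM (log scale), grouped by family, with white for 0 UMIs and red circles on the 10 members led by a class. Isg15, Oas3 and Rtp4 are highest in neutrophils, Ifi44 and Ifi207 in macrophages, and Ifi211 in fibroblasts.

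The members led by neutrophils were Isg15, Oas3, Rtp4 and Isg20. Isg15 encodes a ubiquitin-like protein that is attached to other proteins in infected cells. Its level was 228.0 CPM in neutrophils, 67.3 in macrophages, 32.1 in fibroblasts, 30.4 in tumour cells and 22.6 in T/NK cells, so the lead over macrophages was 3.39-fold (95% interval 3.18 to 3.60). Per cell, however, Isg15 gave 0.488 UMIs in neutrophils and 0.534 in macrophages, since a neutrophil held fewer UMIs in all. Usp18, which removes Isg15 from proteins and restrains the receptor, was nearly level at 12.5 CPM in neutrophils, 12.6 in tumour cells and 13.1 in T/NK cells, with macrophages between the last pair and fibroblasts at 6.04. Its highest level was 2.17 times its lowest.

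Oas3, an enzyme that makes the 2-5A messenger and so activates RNase L, stood at 35.9 CPM in neutrophils and 12.3 in macrophages, a lead of 2.92-fold (2.50 to 3.40). Fibroblasts had 2.20 CPM, tumour cells 6.31 and T/NK cells 3.57. Rtp4, a chaperone of membrane receptors that also restricts RNA viruses, stood at 103.0 CPM in neutrophils and 37.3 in macrophages (2.76-fold, 2.52 to 3.02). Isg20, an exonuclease that degrades single-stranded RNA, had 31.9 CPM in neutrophils, 15.6 in tumour cells, 14.3 in T/NK cells and 4.13 in macrophages, so its lead was over tumour cells (2.04-fold, 1.51 to 2.81). All 4 calls of a neutrophil lead were lost on the scale of UMIs per cell, on which neutrophils led 0 members and macrophages 10. The Isg20 lead was also lost over all barcodes (1.81-fold) and as a mean over cells.

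The members led by macrophages were Ifi44, Ifit2, Ifi209 and Dhx58. Ifi44, a cytoplasmic protein induced by interferon, was at 71.3 CPM in macrophages and 21.9 in tumour cells, a lead of 3.25-fold (2.58 to 4.16), with neutrophils at 9.57, fibroblasts at 11.0 and T/NK cells at 4.76. Ifit2, which binds RNA and hinders its translation, was at 17.9 CPM in macrophages and 6.38 in neutrophils. Ifi209, of the DNA-binding Ifi200 family, was at 43.0 CPM against 19.0 in T/NK cells (16 UMIs). Dhx58, the regulator LGP2 of the RIG-I sensors, was at 30.5 CPM against 14.7 in neutrophils. These leads were 2.80-, 2.26- and 2.07-fold, and the Dhx58 lead was lost as a mean over cells.

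Fibroblasts led Ifi211, another Ifi200 gene, at 119.4 CPM against 32.5 in tumour cells, 29.9 in macrophages, 4.76 in T/NK cells and 3.45 in neutrophils (3.68-fold over tumour cells, 2.97 to 4.59). The lead of T/NK cells in Ifi206 rested on 5 UMIs (5.95 CPM against 1.43 in macrophages, 4.16-fold, 1.3 to 10.3) and was lost with class limits doubled. Just outside the limit lay Ifi207, at 302.2 CPM in macrophages and 152.1 in fibroblasts (1.99-fold, 1.82 to 2.17, and 2.65-fold over all barcodes), then Mx1 with 1.91-fold, Oas2 with 1.85-fold and Slfn5 with 1.83-fold. Besides Usp18, the members most even across classes were Ifit3b, whose highest class was 1.73 times its lowest, Ifi47 with 2.45 times and Xaf1 with 2.47 times. For Ifit3b this rests on 2 UMIs in T/NK cells, fewer than 3 counts, and 5 in fibroblasts, so its evenness is uncertain.

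Oas1a and Oas1g, near-identical neighbours that also encode 2-5A synthetases, had too few UMIs in kept cells for the rule, 25 and 12. They were then read in every barcode of the matrix, including those the authors left out. Over all barcodes, tumour barcodes held 109 of 124 Oas1a UMIs and 49 of 55 Oas1g UMIs. Oas1a was at 5.82 CPM in tumour barcodes, 16.2 times the next class (95% interval 6.15 to 60.5), and Oas1g at 2.62 CPM, 14.6 times (3.82 to 124). Of 758 tumour barcodes, 75 held an Oas1a UMI and no barcode more than 4. Both reached 50 UMIs only through the tumour barcodes, since 15 and 6 UMIs lay outside them, so these values are a description and not counted among the leads. In kept tumour cells alone Oas1a was at 5.41 CPM on 18 UMIs, against 0.162 CPM in macrophages. Reads of the 2 genes may have been split or dropped by the authors' counting, so their division between Oas1a and Oas1g is uncertain.

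Summed by family, the Ifi200 and IFIT levels were highest in macrophages, but 2 of the 7 Ifi200 genes and 3 of the 5 IFIT genes had their own highest level there. The 7 Ifi200 genes, cytosolic and nuclear DNA-binding proteins, summed to 561.3 CPM in macrophages, 481.3 in fibroblasts, 215.8 in tumour cells, 141.5 in T/NK cells and 67.5 in neutrophils. Ifi207 made up 302.2 CPM of the macrophage sum. Without it fibroblasts stood highest at 329.2 CPM, and macrophages followed at 259.1 CPM. Neutrophils were lowest with or without it, at 34.4 CPM without. Ifi204 was at 160.3 CPM in fibroblasts and 116.4 in macrophages but 15.4 in neutrophils, and Ifi203 was at 91.6 in T/NK cells, 82.3 in tumour cells and 6.91 in neutrophils. The 5 IFIT genes summed to 52.0 CPM in macrophages and 32.3 in neutrophils, and the Mx GTPases, which block incoming viral particles, to 19.4 and 2.66. These families hold near-identical copies, so levels of single members are uncertain where the counting could split them.

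As sums in CPM, the OAS group and a small group of nucleotide and RNA enzymes were highest in neutrophils. Of the 6 OAS genes, 3 had their own highest level there. On the scale of UMIs per cell, Oas2, Oasl1 and Rsad2 were led by macrophages. The 6 OAS genes summed to 169 CPM in neutrophils, 122.6 in macrophages, 55.9 in tumour cells, 40.9 in fibroblasts and 9.52 in T/NK cells. Rsad2 (viperin, which makes a chain-terminating nucleotide), Cmpk2 (its neighbour, a nucleotide kinase) and Isg20 each had the highest value of the 5 classes in neutrophils. They summed to 114 CPM there, against 69.1 in macrophages and 12.9 in fibroblasts. Cmpk2 was nearly level, at 6.38 CPM in neutrophils and 6.07 in macrophages (1.05-fold, 0.753 to 1.44). Rsad2 alone was at 75.7 CPM in neutrophils, 58.9 in macrophages and 3.57 in fibroblasts.

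Some members were low in 1 or more classes. Ifi27l2a was at 464.5 CPM in macrophages, 365.2 in T/NK cells, 197.3 in neutrophils, 98.3 in fibroblasts and 13.5 in tumour cells. Slfn5, of the Schlafen family, was at 154.8 CPM in fibroblasts, 19.0 in T/NK cells and 5.41 in tumour cells. Bst2 (tetherin, which holds budding virus to the cell) was at 162.0 CPM in tumour cells, 143.9 in macrophages, 121.1 in fibroblasts, 65.4 in T/NK cells and 24.98 in neutrophils. Trim30a, a negative regulator of Toll-like receptor signalling, was at 143.6 CPM in neutrophils, 112.7 in macrophages, 35.7 in fibroblasts and 18.6 in tumour cells. Members at 0 UMIs were Oas1g and Ifi213 in neutrophils, Ifit1bl1, Oas1a, Oas1g and Ifi206 in fibroblasts, Ifit1bl1, Ifi206 and Ifi213 in tumour cells, and Ifit1bl1, Mx2, Oas1a, Oas1g, Oasl2 and Phf11d in T/NK cells. A count of 0 allows up to 0.399 CPM in neutrophils, 0.824 in fibroblasts, 0.902 in tumour cells and 3.57 in T/NK cells (3 counts of the class total).

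Macrophages were set directly against neutrophils, the 2 largest classes. The module was 1.51 times as high in macrophages in CPM (1.48 to 1.54) and 5.59 times as high per cell. Of 36 members, 15 were at least 2 times higher in macrophages, 4 at least 2 times lower (Isg15, Isg20, Oas3 and Rtp4) and 17 in between. Over all genes tested 51.4% were higher and 12.3% lower. The median log2 ratio was 0.38 for members and 1.005 for all genes. Mx1 was at 15.9 CPM in macrophages and 1.59 in neutrophils (interval of the ratio 5.68 to 19.5), Ifi203 was 9.85-fold and Ifi207 9.13-fold higher. These 3 members had the lowest neutrophil level relative to macrophages, with Ifi203 at 10.2% and Ifi207 at 11.0% of the macrophage level, beside 7.12% for C1qc. The part of macrophage RNA in these neutrophil values was not tested.

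The sum of the module varied widely between cells of a class. To compare cells at 1 depth, each was thinned at random to 1000 UMIs, leaving 4552 macrophages, 2987 neutrophils, 320 fibroblasts, 278 tumour cells and 229 T/NK cells. Macrophages held a mean of 2.16 module UMIs, a median of 1, a 90th percentile of 5, a 99th of 14 and a maximum of 41. Neutrophils held a mean of 1.45, a median of 1, a 90th percentile of 4, a 99th of 14 and a maximum of 40. The variance was 4.43 times the mean in macrophages and 5.79 times in neutrophils, where counting alone would give 1. It was 2.52 times in T/NK cells, 2.29 in tumour cells and 1.73 in fibroblasts.

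**Figure D3:**
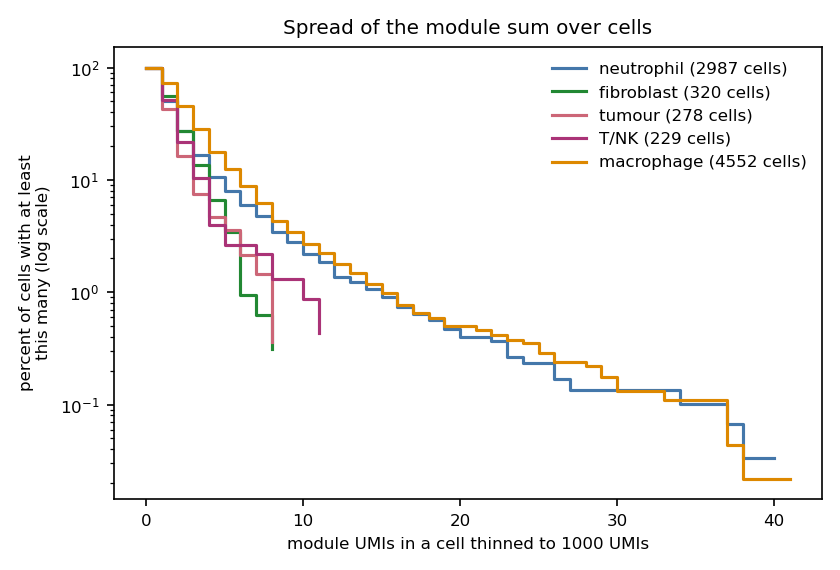
Percent of cells of each class (log axis) that hold at least the number of module UMIs on the x axis, after thinning to 1000 UMIs. Macrophages and neutrophils reach 41 and 40 UMIs, and fibroblasts and tumour cells end at 8.

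A small share of macrophages and neutrophils carried much of the sum. Macrophages with 10 or more module UMIs were 123 cells (2.70%, exact binomial interval 2.25 to 3.22) and held 19.2% of the thinned module UMIs. Neutrophils with 10 or more were 65 cells (2.18%, 1.68 to 2.77) and held 23.6%. T/NK cells had 2 such cells. None of 320 fibroblasts and none of 278 tumour cells reached 10, which allows up to 1.15% and 1.32% by the exact binomial interval. The upper 10% of cells by the sum held 54.9% of the module UMIs in neutrophils, 50.7% in tumour cells, 46.0% in T/NK cells, 41.6% in macrophages and 38.5% in fibroblasts. This share also moves with the mean count, so classes of different mean are given side by side only.

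The cells at 0 module UMIs after thinning were 27.7% of macrophages, 44.1% of fibroblasts, 48.9% of T/NK cells, 49.2% of neutrophils and 57.2% of tumour cells. Without thinning the shares at 0 were 3.94% of macrophages, 4.31% of fibroblasts, 19.8% of T/NK cells, 36.0% of neutrophils and 13.4% of tumour cells. Neutrophils thus had the largest share at 0 before thinning and tumour cells after it.

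Members were high in the same cells. For each member, cells of a class were ranked by the thinned sum of all other members, and the member's own level was compared between the upper 10% and the rest. In macrophages (456 against 4096 cells) 35 of 36 members with at least 50 UMIs were at least 2 times higher in the upper 10%, with a median of 6.26-fold. Among genes that are no members, 2.77% were at least 2 times higher and 3.66% at least 2 times lower. In neutrophils (299 against 2688 cells) all 27 members with enough UMIs were at least 2 times higher, with a median of 6.65-fold, beside 3.28% and 4.95% of other genes. The other 13 members had too few UMIs in neutrophils. Some members reached 50 UMIs only through the upper 10%, where they are high. With 50 UMIs asked of the rest alone, a limit added after seeing the data, 32 of 33 members in macrophages (2.45% of other genes) and 20 of 20 in neutrophils (2.62%) were at least 2 times higher. Ifi207 fell below 2-fold in neutrophils with class limits doubled, with cells of 1 class rule only, at a thinning depth of 500 UMIs and with the upper 20% of cells, and Ifi204 did so at 500 UMIs.

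Of the members with 50 UMIs in the rest, the steepest in macrophages were Ifit3, Rsad2, Ifit2 and Mx1. Rsad2 stood at 480.5 CPM in the upper 10% and 15.1 in the rest, 31.8-fold (28.8 to 35.2). Ifit3 was 34.4-fold, Ifit2 30.9-fold and Mx1 29.7-fold higher. Cmpk2 (176 UMIs in the upper 10% and 48 in the rest) and Ifit3b (69 and 13 UMIs) reached the limit only through the upper cells. The flattest were Ifi207, at 479.7 against 283.7 CPM (1.69-fold, 1.61 to 1.78) and below the limit, then Ifi27l2a at 971.1 against 412.6 CPM (2.35-fold), Eif2ak2 with 2.97-fold and Trim30a with 2.98-fold. The members with the most macrophage UMIs, Ifi27l2a and Ifi207, thus varied least with the rest of the module. Ifi27l2a also fell below 2-fold with class limits doubled and at 500 UMIs. Eif2ak2 encodes PKR, the kinase that stops translation on sensing double-stranded RNA.

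In neutrophils the steepest members by the same limit were Rsad2, at 604.7 against 20.5 CPM (29.5-fold, 24.2 to 36.2), and Herc6, the ligase that attaches Isg15 in the mouse (19.1-fold). Ifit1, at 97 UMIs in the upper 10% and 26 in the rest, and Usp18, at 54 and 37 UMIs, reached 50 UMIs only through the upper cells. The flattest were Ifi207 with 2.74-fold, Trim30a with 3.24-fold, Ifi35 with 3.28-fold and Ifi27l2a with 3.47-fold. Isg15, the member led by neutrophils, stood at 1024 against 140.6 CPM in neutrophils (7.28-fold) and at 446.0 against 28.4 CPM in macrophages (15.7-fold).

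**Figure D4:**
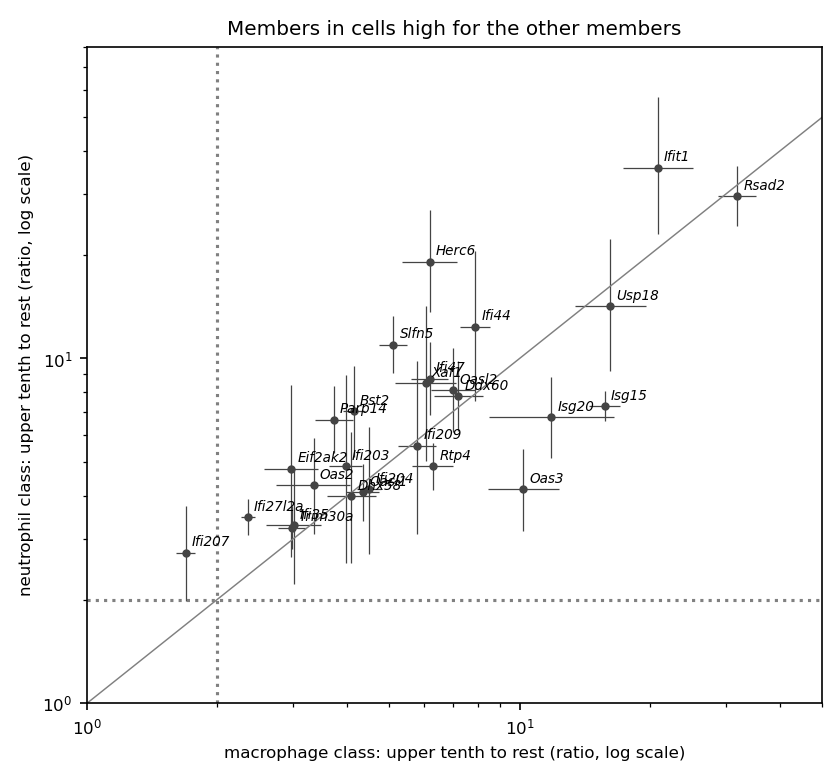
Ratio of each member's level in the upper 10% of cells, ranked by the other members, to the rest, in macrophages (x axis) and neutrophils (y axis), both on log axes, for the 27 members measured in both. Bars are exact 95% intervals, dotted lines the 2-fold limits and the diagonal equal ratios. Rsad2 and Ifit1 lie at the upper end, and Ifi207, Trim30a and Ifi27l2a at the lower end in both classes. In neutrophils Ifit1, Ifi44, Ifi203, Ifi209, Usp18, Xaf1 and Eif2ak2 reached the UMI minimum only through the upper cells, where they are high.

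The order of members was alike in both classes among those measured, with a limit on some neutrophil ratios given below. Over the 27 members measured in both, the log2 ratios had a Pearson correlation of 0.781 and a Spearman correlation of 0.753, a description across genes of 1 library that shares its free RNA. The ratio was larger in neutrophils for 17 members and in macrophages for 10. Ifit1, Ifi44, Ifi203, Ifi209, Usp18, Xaf1 and Eif2ak2 reached the UMI minimum in neutrophils only through the upper cells, where they are high. The correlations and this split include these members and were not computed without them, so the likeness is a description.

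The upper 10% was not deeper than the rest. Median UMIs per cell were 6402 against 7470 in macrophages and 1788 against 1866 in neutrophils. Mitochondrial UMIs were 2.29% against 2.48% in macrophages and 0.951% against 0.874% in neutrophils. Cells that met more than 1 class rule were 7.69% of the upper neutrophils and 8.26% of the rest. Neutrophil markers in the macrophages were at 662 against 933 CPM, and summed osteoclast markers at 327.1 against 221.5 CPM. Of the latter, Ctsk was at 218.4 against 117.4 CPM (1.86-fold). Acp5 was at 1.03-fold, Atp6v0d2 at 0.98-fold and Ocstamp at 1.60-fold, each with an interval that included 1. Macrophage markers in the neutrophils other than Cd14 were at 638.8 against 433.0 CPM. Of these, Fcgr1, the Fc receptor CD64, was at 81.9 against 15.1 CPM (5.43-fold). Its 55 UMIs in the upper neutrophils lay in 18 cells, with 18.2% of them in 1 cell. C1qc was at 223.4 against 123.7 CPM (1.81-fold), and Ms4a7 at 19.4 against 20.98 CPM. Fcgr1 was also 2.52-fold higher in the upper macrophages. The part of macrophage RNA in the upper neutrophils was not tested.

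Other genes of the pathway were read by the same ranking, in lists set by known role. None of the 4 measured ligand and receptor genes was at least 2 times higher or lower in the upper 10% of either class, and Ifnar1 was 1.07-fold and Ifnar2 1.26-fold in macrophages. The ligands were scarce: Ifnb1 had 19 UMIs over kept cells, 16 of them in macrophages, and Ifng, the type II interferon, 19 UMIs, 11 of them in T/NK cells. Ifna1, Ifna2, Ifna4 and Ifna5 had 0 UMIs and Ifna16 had 1.

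Of 13 signalling genes, 5 were at least 2 times higher in the upper macrophages and 0 lower. Among them were Irf7, which amplifies interferon production (8.27-fold), Socs1, a feedback inhibitor (3.91-fold), Stat2, a subunit of ISGF3 (3.55-fold), and Irf1 (2.08-fold). In neutrophils 7 of 13 were higher, among them Irf7 (5.35-fold), Stat2 (5.03-fold) and Socs1 (3.53-fold), and 1 was lower, Irf3, on 2 UMIs in the upper 10%.

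Of 30 other interferon-induced genes, 26 were higher in macrophages and 0 lower, and in neutrophils 21 of the 24 measured were higher and 0 lower. Cxcl10, a chemokine for T and NK cells, was at 621.4 against 53.5 CPM in macrophages (11.6-fold) and 12.4-fold higher in neutrophils. Its UMIs lay in 146 upper macrophages but in only 16 upper neutrophils, with 28.4% of the latter UMIs in 1 cell. Tnfsf10, the death ligand TRAIL, was 34.7-fold higher in macrophages, on 82 UMIs in the upper cells and 23 in the rest. Tnfsf10 reached the UMI minimum only through the upper cells, where it is high, so its ratio is a description. Ifih1 (the RNA sensor MDA5) was 9.21-fold higher in neutrophils, and Zbp1 (a sensor of Z-form nucleic acid) was at 113.2 against 16.2 CPM there. Ifitm1 was an exception at 0.708-fold in macrophages.

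Genes that lean to interferon gamma were high in part. In macrophages 8 of 12 were higher and 0 lower, and in neutrophils 3 of 7 were higher and 0 lower. Cxcl11 was 12.0-fold higher in the upper macrophages, while the class II genes H2-Aa and Cd74 were at 1.83-fold and 1.60-fold. The NF-kB list of inflammatory genes differed from this: 0 of 14 were higher and 2 lower in macrophages (Cxcl3 at 0.475-fold and Il6 at 0.453-fold), and 0 were higher or lower in neutrophils. Il1b, the main inflammatory cytokine gene of the list, was at 1.02-fold in macrophages and 1.29-fold in neutrophils. The share of non-members above the limit stands above for each class.

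**Figure D5:**
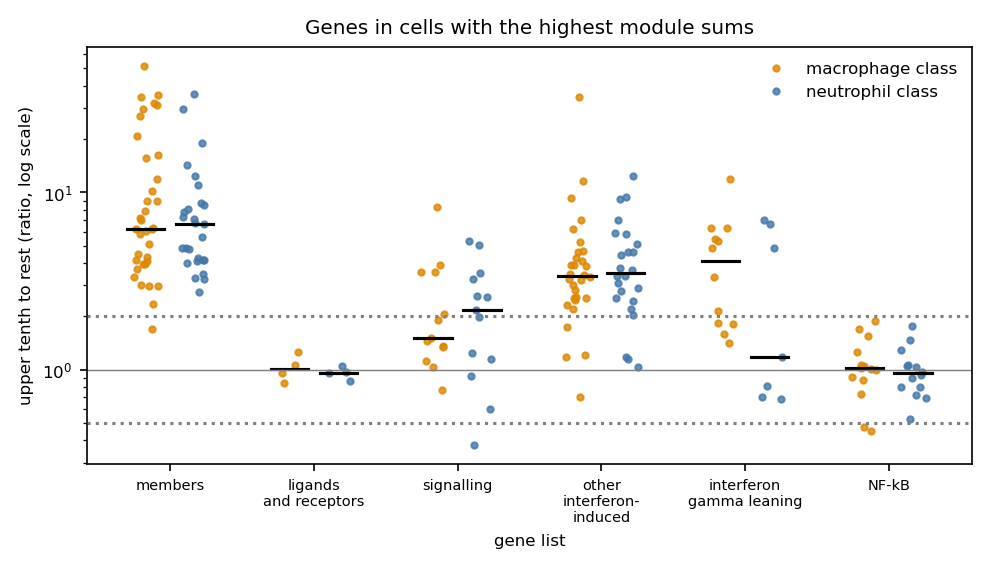
Ratio of the upper 10% of cells to the rest (log axis) for each measured member and each measured gene of the 5 lists of other pathway genes, in macrophages and neutrophils, with black bars for medians and dotted lines for the 2-fold limits. Other interferon-induced genes lie mostly above the upper limit, and NF-kB genes lie around 1.

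Genes outside the module with at least 50 UMIs in the upper 10% were then chosen by the size of the ratio. This minimum was set in the cells where they are high, so the ratios are a description. In the upper macrophages Ifi214, an Ifi200 gene outside the module, was at 31.9 against 1.97 CPM (16.2-fold). Sectm1a, on 59 UMIs in the upper 10%, was at 17.1 against 1.13 CPM (15.1-fold). In neutrophils Ms4a4c was 9.40-fold, Ccl12 7.76-fold, Gbp5 7.03-fold and Rnf213 6.89-fold higher. Cfd (668-fold), Car3 (323-fold) and Retn (32.8-fold) stood among the largest ratios in macrophages but lay in 4, 3 and 4 cells, with 51.4%, 56.0% and 54.7% of the UMIs in 1 cell. Ifi214 and Sectm1a lay in 63 and 36 upper macrophages, and Ms4a4c and Ccl12 in 10 and 13 upper neutrophils. A single upper neutrophil held 19.6% of the Ms4a4c UMIs, and 1 held 30.4% of the Ccl12 UMIs.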

How the data were processed

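Single-cell RNA was made with Chromium 3′ v3 reagents, per the labels' protocols. The deposited values are raw UMI counts per gene and barcode. Cell Ranger 8.0.1 made them per the file headers. The submitters' processing notes also list STAR. Their annotation and build were not given in the sources used here. The authors' list of kept cells was used, and the treated counts were matched to it by barcode.

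UMIs were summed per class and given in CPM. Poisson, ratio and binomial (Clopper-Pearson) intervals were exact. Ratios needed at least 50 UMIs, and medians of log2 ratios had 0.5 counts added to each sum. For spread and following, each cell was thinned to 1000 UMIs. Doublets were not called. Cells meeting several class rules went to the first. Python 3.11.15, numpy 2.4.6, scipy 1.17.1 and pandas 2.3.3 were used, and the steps were tested on simulated data.

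Members and lists were chosen with earlier results of these data known. Genes named were the 3 members with most UMIs per class, up to 4 led per class with the largest ratio, the 4 most even, the 4 that follow most and least, the 8 largest non-members, and up to 4 genes per list. Other names (Ifi203, Ifi204, Bst2, Slfn5 across classes, Oas1a, Oas1g, list genes near 1 and those just outside the limit) were chosen after their values were seen. Alternatives were all barcodes, doubled class limits, 1 rule only, mean over cells, UMIs per cell, other thinning depths and limits, and leaving out the member with most UMIs.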

Additional observations from a re-analysis of the deposited data

Results flagged for a closer look

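The 1474 barcodes that the authors left out also held the module, at 1078 CPM (95% interval 1067 to 1089), against 1757 CPM in kept cells. Of these barcodes, 1097 had 20000 UMIs or more. By class, left-out macrophage barcodes stood at 1616 CPM, tumour barcodes at 886 CPM and fibroblast barcodes at 780 CPM. The control counts were not analysed here, so there was no control level beside these values.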

How the results depend on the processing

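The module level is given as log2 of the ratio to other kept cells, in the order neutrophil, fibroblast, tumour, T/NK, macrophage: −0.39, −0.61, −1.08, −0.75 and 0.73. Over all barcodes it was −0.15, −0.80, −0.91, −0.56 and 0.90. As UMIs per cell it was −2.16, 0.44 (the fibroblast sign reversed), −0.16, −1.43 and 1.79. Without Ifi27l2a it was −0.28, −0.40, −0.77, −1.04 and 0.59. With class limits doubled it was −0.47 in neutrophils, −1.22 in tumour cells and 0.50 in macrophages. As a mean over cells it was −0.56 in tumour cells and 0.63 in macrophages. The tumour value then became −0.97 without 1 barcode, an alternative chosen after seeing the data. Members led by a class numbered 10, and 1 (Ifi206) at a ratio of at least 4. Of the 10, 9 were shared over all barcodes, 9 with class limits doubled, 8 as a mean over cells and 5 as UMIs per cell. Mx1 gained a macrophage lead with class limits doubled, as a mean over cells and per cell, and Ifi207 over all barcodes and with cells of 1 class rule. In the main setting Mx1 reached 50 UMIs only through macrophages, so its leads are a description. The share of module UMIs in the upper 10% of cells, 54.9% in neutrophils and 41.6% in macrophages, was 58.4% and 45.0% at 500 UMIs, 51.8% and 39.7% at 2000 UMIs, and 56.7% and 45.2% without Ifi27l2a, and 53.4% in neutrophils with class limits doubled. The counts of members following the rest stayed within 1.5 times in all 12 comparisons, where each setting counts once for macrophages and once for neutrophils. In neutrophils Ifi207 kept its place only over all barcodes and with 50 UMIs asked of the rest alone. It was lost there with class limits doubled, with cells of 1 class rule, at 500 UMIs and with the upper 20% of cells. Ifi204 was lost in neutrophils at 500 UMIs, and Ifi27l2a in macrophages with class limits doubled and at 500 UMIs. The cause of these shifts was not tested. No paired analysis was possible because counts of 1 library only were used and no replicate was labelled.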

Other observations

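A single kept barcode of the tumour class held 78 module UMIs of 814 in all (9.58%), over 19 members, and met 1 class rule. The next highest tumour barcode was at 0.812%. Tumour cells under 1000 UMIs, which the thinned comparison left out, were at 3758 CPM with this barcode and at 1329 CPM without it. At a thinning depth of 500 UMIs, the variance of the module sum over tumour cells was 13.4 times the mean with it and 1.44 times without it.

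Kept cells of no class stood at 1349 CPM of the module (1324 to 1375). They also had the highest summed osteoclast markers, 2802 CPM, and endothelial markers, 347.3 CPM, of all groups of cells. After thinning, 29 of 1554 of these cells (1.87%) held 10 or more module UMIs.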
